A study of Mus musculus with 24 samples.

Results

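The Hox clusters of the mouse were described in H3K4me1, PU.1 and open chromatin maps of blood progenitors with and without Utx. The members were 38 Hox genes, 10 in cluster A, 10 in cluster B, 9 in cluster C and 9 in cluster D, of 21887 protein-coding genes. They were chosen by position: each cluster was taken from its first to its last annotated Hox gene with 50 kb added on each side, and the peaks in these 4 windows were merged within each assay. This gave 56 of 58663 merged H3K4me1 regions, 119 of 197216 PU.1 regions and 51 of 79094 ATAC regions. In the mouse build GRCm38 (mm10), the Hox genes spanned 52162417 to 52260880 on chromosome 6 (A), 96194316 to 96368254 on chromosome 11 (B), 102921131 to 103036856 on chromosome 15 (C) and 74668225 to 74765142 on chromosome 2 (D).

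Hox genes encode homeodomain transcription factors, and their order along each cluster follows the order of their use along the body axis. Anterior genes lie at one end and posterior genes at the other. In blood, stem and progenitor cells use mainly A and B cluster genes; Hoxa9 with its cofactor Meis1 maintains immature cells, and both are drivers in myeloid leukaemia. Polycomb complexes, which place H3K27me3, keep unused Hox genes silent, while MLL proteins (Kmt2a) keep used ones active. Utx (gene Kdm6a, X-linked) removes H3K27me3 and belongs to the complexes that place H3K4me1, a histone mark of enhancers. PU.1 (gene Spi1) is an ETS factor of myeloid and lymphoid cells.

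All 24 samples were lineage-negative (Lin-) bone marrow progenitors of C57BL/6 mice, that is, bone marrow depleted of mature cells, and 22 of them had a peak list. Utx wild-type cells (WT) and Utx knockout cells (KO) were each mapped in 2 libraries for H3K4me1 and in 3 for PU.1. A first ATAC set held 4 groups of 2 libraries: Cas9-expressing WT and KO cells, each with an empty guide vector or with a Smarca4 guide RNA (gRNA). Smarca4 is the gene of Brg1, an ATP-driven chromatin remodeller. A second ATAC set held 2 groups of 2 libraries, Cas9-expressing WT cells with an empty vector or a Chd4 gRNA. Chd4 is the remodeller in NuRD, a deacetylase complex. The labels of the second set describe 7 days in semi-solid and 5 days in liquid culture and an assay 6 days after editing; this text speaks of Brg1. Whether the first set was cultured in the same way is not stated in the sources used here. Age, sex and the way Utx was deleted are not given in the sources used here. The sources do not say whether libraries of a group came from separate animals or cultures, so p-values measure only the spread between these libraries.

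Each H3K4me1 list held 43699 to 54645 islands over 179 to 284 Mb, each PU.1 list 137836 to 171514 over 114 to 128 Mb, and each ATAC list 24797 to 50884 peaks over 13.2 to 34.2 Mb. The read depth behind them is unknown. Of 7 progenitor marker genes, 7 had a peak in every ChIP library and 5 to 7 in the ATAC libraries. Mpo, a granule enzyme of early myeloid cells, had none in any library of the first ATAC set and a peak in all 4 of the second. Of 5 granulocyte and macrophage markers, WT libraries of the first set had a peak at 2 or 3 and KO libraries at 1, with S100a8, Itgam, Ly6g and Adgre1 at 0 in all 4 KO libraries; libraries of the second set had 4. In the ATAC libraries 0 to 2 of 4 T cell and 1 to 3 of 4 erythroid markers had a peak. The part of these cell type differences in the Hox values was not tested. Peak lists cannot show whether Kdm6a, Smarca4 or Chd4 was deleted or edited, and Kdm6a had peaks in every KO library.

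The promoters of 4 genes are shown because they differ in CpG content and in PU.1 coverage, and are printed from RefSeq (GRCm38.p6) as the 5′ to 3′ strand of each gene, in lower case. Of the 38 genes, 22 had a promoter sequence, 24 promoters in all. In the first 3, capitals mark each CG pair, the CpG that defines CpG-rich promoters. In the fourth, capitals mark the PU.1 core GAGGAAGT, which lies on the opposite strand there. Hoxa9 is at chr6:52227321-52227620 (minus strand), Hoxd9 at chr2:74697513-74697812, Hoxd13 at chr2:74667975-74668274 and Hoxc4 at chr15:103034145-103034444 (all plus strand).
Hoxa9: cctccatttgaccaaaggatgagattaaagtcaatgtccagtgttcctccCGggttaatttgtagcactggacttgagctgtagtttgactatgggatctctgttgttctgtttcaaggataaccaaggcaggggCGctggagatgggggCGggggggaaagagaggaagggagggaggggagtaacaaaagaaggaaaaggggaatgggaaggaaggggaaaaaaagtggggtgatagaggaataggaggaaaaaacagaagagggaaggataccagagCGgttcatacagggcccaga
Hoxd9: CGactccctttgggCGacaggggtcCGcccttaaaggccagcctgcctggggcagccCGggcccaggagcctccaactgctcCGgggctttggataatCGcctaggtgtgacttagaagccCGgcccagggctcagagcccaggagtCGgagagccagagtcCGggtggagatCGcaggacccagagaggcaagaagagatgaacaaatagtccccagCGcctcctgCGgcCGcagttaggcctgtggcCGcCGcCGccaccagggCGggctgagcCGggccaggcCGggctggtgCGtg
Hoxd13: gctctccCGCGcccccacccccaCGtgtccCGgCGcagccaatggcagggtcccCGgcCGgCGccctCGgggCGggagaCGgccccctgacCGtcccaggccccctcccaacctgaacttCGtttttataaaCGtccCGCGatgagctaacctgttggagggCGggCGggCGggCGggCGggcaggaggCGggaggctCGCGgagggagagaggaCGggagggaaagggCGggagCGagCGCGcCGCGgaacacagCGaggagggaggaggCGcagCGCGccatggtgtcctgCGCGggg
Hoxc4: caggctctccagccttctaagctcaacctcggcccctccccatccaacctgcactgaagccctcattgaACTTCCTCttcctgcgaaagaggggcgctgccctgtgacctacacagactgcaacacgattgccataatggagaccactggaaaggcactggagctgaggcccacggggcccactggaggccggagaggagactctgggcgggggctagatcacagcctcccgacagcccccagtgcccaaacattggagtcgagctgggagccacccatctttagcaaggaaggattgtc

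The 24 Hox promoters held a median of 14.5 CpG pairs (4 to 45), against 7.0 over 32851 promoters of the genome. Hoxa9 had 4, Hoxd9 20 and Hoxd13 37. All 4 H3K4me1 libraries covered the Hoxa9, Hoxd9 and Hoxd13 promoters in full. PU.1 islands covered the Hoxa9 promoter by 279, 300 and 300 bases in WT and by 300, 300 and 0 in KO, so only KO replicate 3 lacked it. ATAC peaks of the first set covered the Hoxd9 promoter by 219 and 66 bases in WT and 135 and 128 in KO with empty vector, and by 67 and 104 in WT and 126 and 84 in KO with Smarca4 gRNA; the 8 libraries overlapped between groups. The second set covered it by 5, 0, 0 and 0 bases.

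Among 5 motifs searched on both strands, the PU.1 core GAGGAAGT was in 1 of 24 Hox promoters (Hoxc4), against 3.2% of all promoters. The ETS motif CCGGAAGT (3.89% of all) and the GATA motif AGATAA (11.2%) were in 0. The Meis motif TGACAG was in Hoxa2 and Hoxa3 (19.2% of all), and the Hox-Pbx motif TGATTNAT in Hoxa2 and Hoxd11 (3.22%). PU.1 islands covered the Hoxc4 promoter by 300, 255 and 0 bases in WT and by 0 in all 3 KO libraries; WT replicate 3 was therefore like the KO libraries.

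MicroRNA genes lie between the Hox genes, and their mature sequences (RefSeq, GRCm38.p6) are shown because 2 families share a seed, bases 2 to 8, across clusters; capitals mark it. The miR-196 family is known to repress Hox messenger RNAs.
mmu-miR-196a-5p: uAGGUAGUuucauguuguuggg
mmu-miR-196b-5p: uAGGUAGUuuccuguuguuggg
mmu-miR-10a-5p: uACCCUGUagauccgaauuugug
mmu-miR-10b-5p: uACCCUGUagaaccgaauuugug

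Members of 1 family differed in their marks. H3K4me1 covered the whole hairpin of Mir196b (cluster A, 85 bases) and Mir10a (cluster B, 110 bases) in all 4 libraries, and none of Mir196a-1 (B), Mir196a-2 (C) or Mir10b (D) in any. No hairpin was covered by an ATAC peak, and PU.1 covered 1, Mir196b in KO replicate 3.

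H3K4me1 lay over nearly the whole Hox family. In WT, 34 and 36 of 38 genes (89.5 and 94.7%) had an island within their span or 1 kb of it, against 69.3 to 71.9% of all genes. The order of the clusters was A, B, D, C: islands covered 27.9 and 34.1% of the A window in WT, 21.6 and 21.2% of B, 14.1 and 18.4% of D and 11.7 and 14.6% of C. The values of C and D overlapped, and those of A and B did not. The broadest island of the clusters was a merged region of 29.2 kb in A (chr6:52206201-52235399), across parts of Hoxa3, Hoxa6, Hoxa7, Hoxa9 and Hoxa10, and it ranked 257 to 580 by score in the 4 lists. Cluster B had one of 20.4 kb over Hoxb3, Hoxb4 and Hoxb5 (chr11:96302401-96322799), cluster C one of 8.8 kb at Hoxc9 (chr15:102974801-102983599) and cluster D one of 8.2 kb outside its genes, 5825 bp from Hoxd13 (chr2:74654201-74662399).

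By gene, Hoxa7 and Hoxa9 were covered by H3K4me1 over 100% of their span in all 4 libraries. Hoxb2, Hoxb4 and Hoxb5 followed in WT with means of 95.6, 94.1 and 92.5%. Hoxa5 was the 1 member without an island in any library. By class, WT coverage was 30.1 and 37.0% for the 7 anterior genes (paralogues 1 to 3), 37.4 and 43.5% for the 15 central genes (4 to 8) and 44.2 and 49.5% for the 16 posterior genes (9 to 13). The 3 classes did not overlap, with the anterior lowest and the posterior highest. Posterior genes ranged by cluster from 65.3 and 79.4% in A to 21.4 and 23.1% in B, so the order of classes was not that of every cluster. The spans of Hoxa3, Hoxb3 and Hoxd3 contain Hoxa4, Hoxa5 and Hoxa6, Hoxb4, and Hoxd4, and Hoxd10 overlaps Hoxd11, so such genes share peaks. Hoxa3 itself was covered by 22.7 and 24.9%.

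A smaller share of Hox genes than of all genes had a PU.1 island. In WT, 22 to 24 of 38 (57.9 to 63.2%) had one, against 74.8 to 74.9% of all genes. A longer span has more room for an island, and gene length was not matched here or in the ATAC counts below. These shares therefore do not compare the density of peaks. Clusters A and B held most of it: 12.4, 12.7 and 10.9% of the A window and 9.7, 10.3 and 9.85% of B were covered, against 4.26, 3.79 and 3.52% of C and 4.06, 3.45 and 4.87% of D. A lay above B in all 3 libraries, and both above C and D; C and D overlapped. The highest gene means were Hoxa7 (57.4%), Hoxa9 (55.2%), Hoxb4 (53.3%), Hoxa11 (36.3%) and Hoxb1 (32.2%). The widest island lay within Hoxb3 (chr11:96308601-96312599), was held by all 6 libraries and ranked 1744 to 4048 by score among all islands of each list. The widest elsewhere were at Hoxa3 (chr6:52211201-52214799), Hoxd11 (chr2:74678401-74680799) and Hoxc9 (chr15:102975401-102977599). Hoxa2, Hoxa5, Hoxa13, Hoxb13, Hoxc5, Hoxc8, Hoxc11, Hoxc13, Hoxd1 and Hoxd8, 10 genes, had no PU.1 island in any library.

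Open chromatin in the first ATAC set had another order, with D highest. In WT with empty vector, 17 and 14 of 38 genes (44.7 and 36.8%) had a peak, against 65.3 to 65.5% of all genes. Peaks covered 3.31 and 3.56% of the D window, 1.28 and 1.1% of B, 1.3 and 0.774% of A and 0.652 and 0.697% of C. D did not overlap any other cluster, and A and B overlapped. The genes with the highest means were Hoxd13 (18.6%), Hoxd9 (15.3%), Hoxd8 (11.8%), Hoxb2 (11.2%) and Hoxb4 (9.15%). The second set, whose lists were made separately, placed A first: its WT empty-vector libraries covered 1.58 and 1.05% of A, 1.0 and 0.355% of B, 0.796 and 0.153% of D and none of C. There Hoxa9 (9.75%), Hoxb4 (9.44%), Hoxa4 (7.43%), Hoxb3 (4.0%) and Hoxa5 (3.83%) led. Hoxa9 was thus without an ATAC peak in all 8 libraries of the first set and covered by 13 and 6.55% in the second; no test was made across the sets. Hoxb3 was the only Hox gene with a peak in all 12 libraries, and 15 genes had none in any: Hoxa2, Hoxa7, Hoxa13, Hoxb5, Hoxb9, Hoxb13, Hoxc4, Hoxc5, Hoxc8, Hoxc11, Hoxc12, Hoxc13, Hoxd1, Hoxd4 and Hoxd12.

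**Figure D1:**
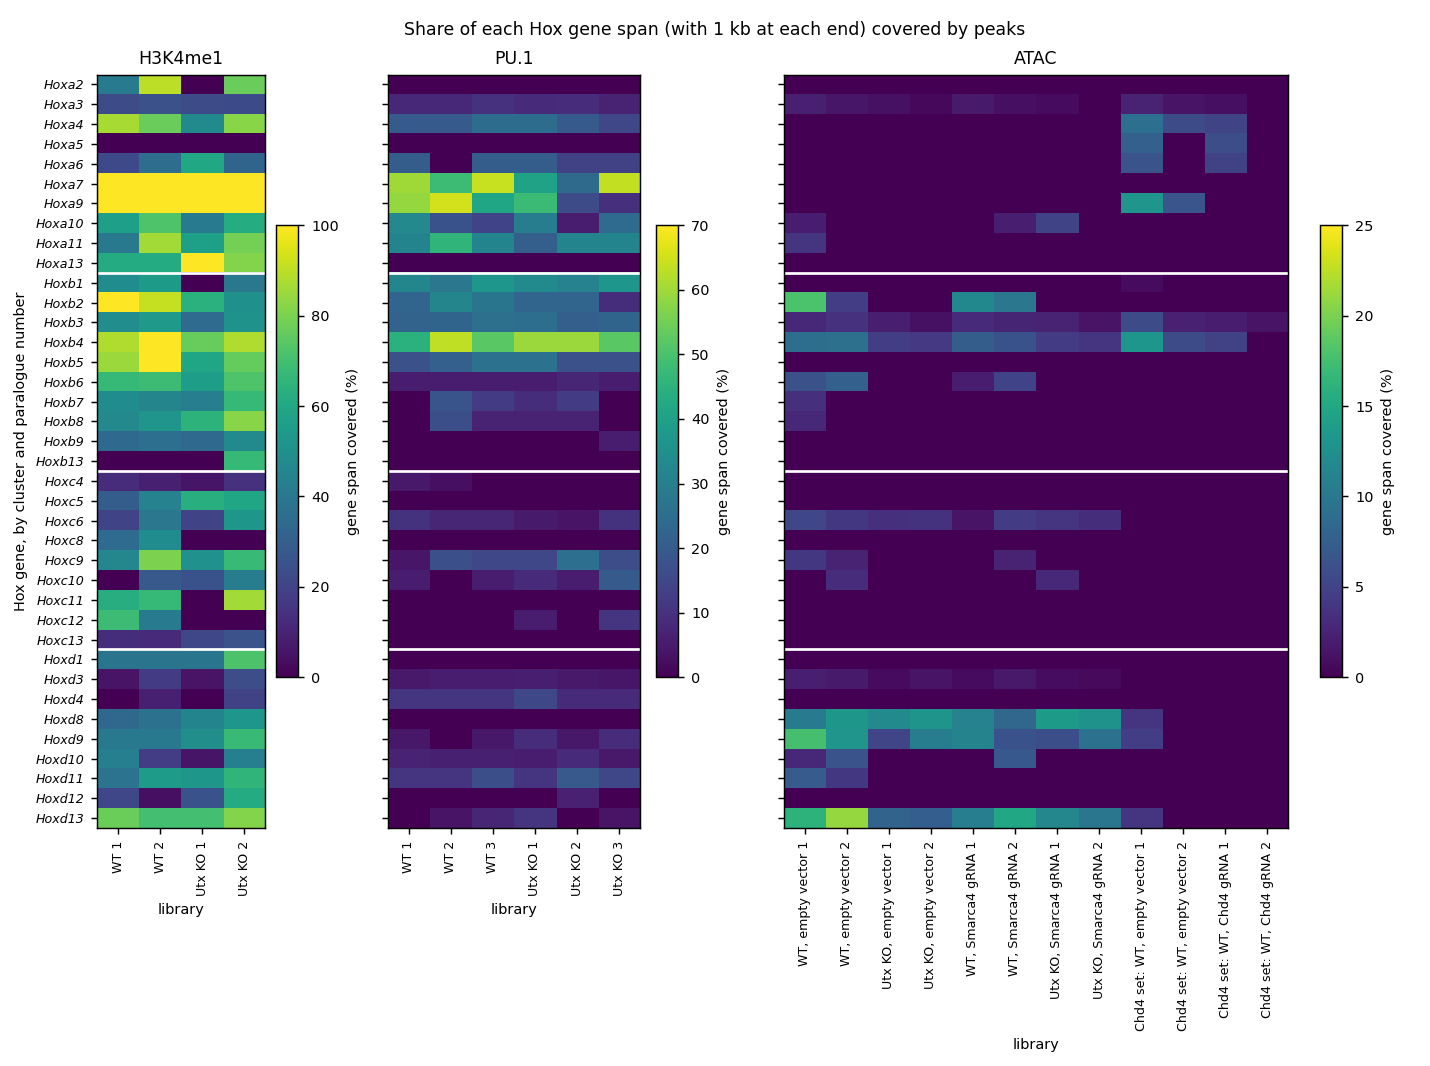
Share of each Hox gene span, with 1 kb at each end, covered by peaks in each library (colour, percent, with a separate scale for each assay; genes by cluster and paralogue number, white lines between clusters). Hoxa7 and Hoxa9 are covered over 100% by H3K4me1 in all 4 libraries, and ATAC coverage is highest at Hoxd13 in WT libraries with empty vector of the first set.

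The widest ATAC regions of the clusters were at Hoxb2 (chr11:96352766-96353551), Hoxc6 (chr15:102998757-102999591), Hoxa9 (chr6:52225708-52226498) and 8671 bp from Hoxd13 (chr2:74658379-74659553). One ATAC region was held by all 12 libraries, chr6:52221378-52222118, 978 bp from Hoxa9 between Hoxa7 and Hoxa9. Of the 51 Hox ATAC regions, 17 (33.3%) overlapped a PU.1 island present in all 3 WT libraries, against 56.2% of ATAC regions in the genome. This share was 66.7% in B and 50.0% in A, and 14.3% in C and lowest in D. H3K4me1 islands present in both WT libraries met 37 of 51 (72.5%, against 60.4% in the genome). Open sites of D thus overlapped H3K4me1 in 12 of 20 cases and PU.1 in 2 of 20.

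Loss of Utx was compared first in ATAC, in cells with empty vector. Hox clusters were less covered in KO: peaks covered 1.58 and 1.47% of the 4 windows in WT and 0.586 and 0.644% in KO, a ratio of 0.402 for the means (1.53% ± 0.0779 and 0.615% ± 0.0412, SD, n = 2 each). The groups did not overlap, and by the two-sided exact permutation test p = 0.333, the smallest that 2 against 2 allows. KO lists were also shorter, with 0.793 times the covered bases of WT. For each Mb that a library's list covered, 461 and 381 bases lay in Hox windows in WT and 202 and 223 in KO, again without overlap (ratio 0.505). Among the marker lists, granulocyte and macrophage markers alone went the same way, with a peak at 2 or 3 of 5 in WT and 1 of 5 in KO. The progenitor, B cell, T cell and stroma counts were equal in WT and KO, and the erythroid counts overlapped. By H3K4me1, granulocyte and macrophage markers went the other way, with an island at 4 of 5 in WT and 5 of 5 in KO. The part of these markers in the Hox result was not tested. In such pooled cells, fewer cells with an open site and less openness per cell cannot be told apart.

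Each of the 4 clusters was lower in KO without overlap. Cluster D went from 3.31 and 3.56% in WT to 1.15 and 1.71% in KO (ratio of means 0.416), and B from 1.28 and 1.1% to 0.473 and 0.314% (0.33). Cluster A went from 1.3 and 0.774% to 0.552 and 0.461% (0.488), and C from 0.652 and 0.697% to 0.245 and 0.265% (0.378). All 3 classes were lower too, the posterior genes from 3.2 and 2.85% to 0.633 and 0.831% (ratio 0.242), the anterior from 2.62 and 2.15% to 1.19 and 0.869% (0.432) and the central from 2.47 and 2.37% to 1.26 and 1.32% (0.532). Posterior genes were above the other classes in both WT libraries and below them in both KO libraries. Without Hoxd13 they had 2.49 and 1.87% in WT, not above the other classes, and 0.235 and 0.472% in KO. Whether the classes differ in their ratio was not tested.

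**Figure D2:**
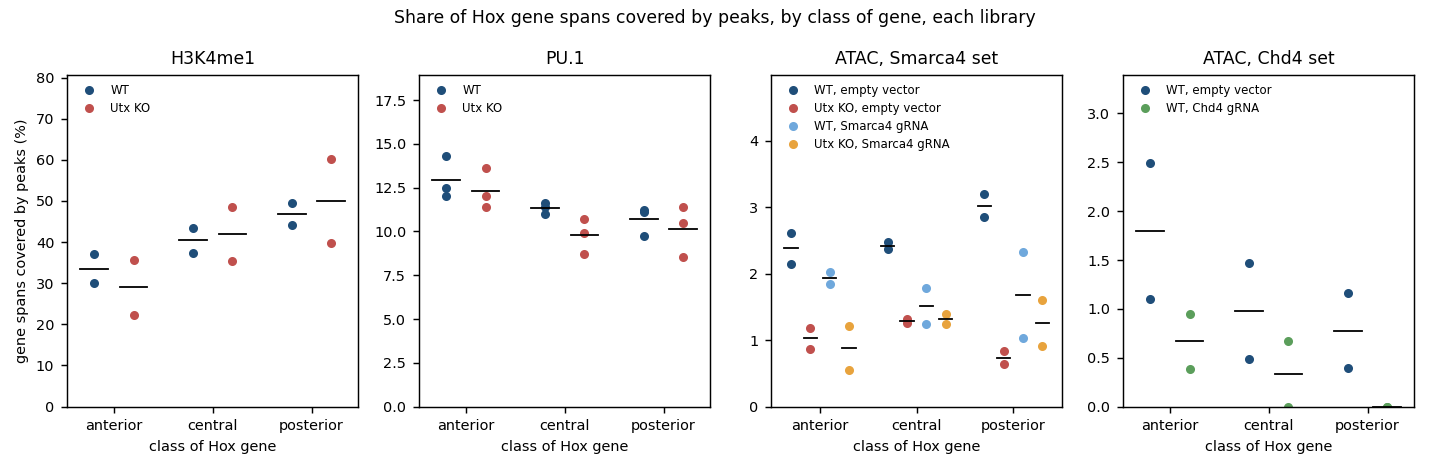
Share of the gene spans of anterior, central and posterior Hox genes covered by peaks (percent, linear axes from 0, 1 panel per assay or ATAC set). Points are libraries and black lines are group means; in the first ATAC set the 2 KO libraries with empty vector lie below both WT libraries in every class, at 0.633 and 0.831% for posterior genes.

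Of 18 Hox genes with an ATAC peak in any of these 4 libraries, 12 were less covered in both KO than in both WT libraries, against 49.7% of all genes with a peak, and 0 were more covered, against 6.62%. The 12 were Hoxa3, Hoxb2, Hoxb3, Hoxb4, Hoxb6, Hoxc6, Hoxc9, Hoxd3, Hoxd9, Hoxd10, Hoxd11 and Hoxd13. Hoxd13, the most posterior gene of its cluster and a limb and genital patterning factor, had 16.2 and 21.0% in WT and 7.98 and 7.45% in KO, a difference of -10.9 percentage points. The 1 kb beside Hoxd13 takes in chr2:74667255-74667743, which is also among the lost regions below. Hoxb2, a hindbrain patterning gene, had 17.9 and 4.56% in WT and 0 in both KO libraries. Hoxd9 had 17.6 and 13% against 5.24 and 10.5%. The WT libraries differed by more than 3-fold at Hoxb2, while those of Hoxd13 and Hoxd9 lay closer together.

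Hoxb6 had 6.19 and 7.66% in WT and 0 in KO, and Hoxb4, a gene known to expand stem cells, 9.08 and 9.21% against 4.5 and 4.11%. Hoxd10, Hoxd11 and Hoxc9 were also at 0 in both KO libraries, from means of 4.61, 5.61 and 3.3% in WT. At Hoxd10 and Hoxd11 the WT libraries had peaks at different positions, and no merged region there was held by both of them. The replicates of each genotype lay close together at Hoxb4. Hoxd8 behaved otherwise, with 10.4 and 13.2% in WT and 12 and 12.9% in KO.

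A merged region was counted as lost when both control libraries and no library of the other group held a peak on it, and as gained in the opposite case. Of 40 Hox regions held by any of these 4 libraries, 10 were lost (25%, against 11.3% of all regions) and 0 were gained (1.92% of all). Hox regions were narrow, and among all regions no wider than the widest Hox region (1175 bp) 13.2% were lost. By cluster 4 of 10 were lost in B, 4 of 17 in D, 1 of 7 in A and 1 of 6 in C. The count depended on list length: with each list shortened to its widest 40424 peaks, the length of the shortest, 1 of 28 Hox regions was lost (3.57%, against 5.82%), and with the wider 50% of each list 5 of 14 were (35.7%, against 10.5%). Without WT replicate 2 the count was 18.

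Of the 10 lost regions, 5 lay within the gene clusters and 4 of these on a Hox gene. Within Hoxb6 were chr11:96294262-96294866, covered by 357 and 605 bases in WT, and chr11:96299173-96299481, by 309 and 219. On Hoxb3 and Hoxb4 together was chr11:96319912-96320276 (276 and 243 bases), and on Hoxb2 chr11:96352766-96353551 (786 and 200 bases). Beside Hoxc9, 937 bp away, was chr15:102975847-102976094 (248 and 205 bases). KO libraries had 0 bases at all of them. Hoxb6 and Hoxb2 also overlap antisense genes, Hoxb5os and Hoxb3os, so these sites cannot be given to 1 gene. Of the other 5, 4 lay 0.481 to 10.2 kb outside Hoxd13, towards and at Evx2, the homeobox gene next to the cluster, and 1 lay 45.0 kb from Hoxa13.

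**Figure D3:**
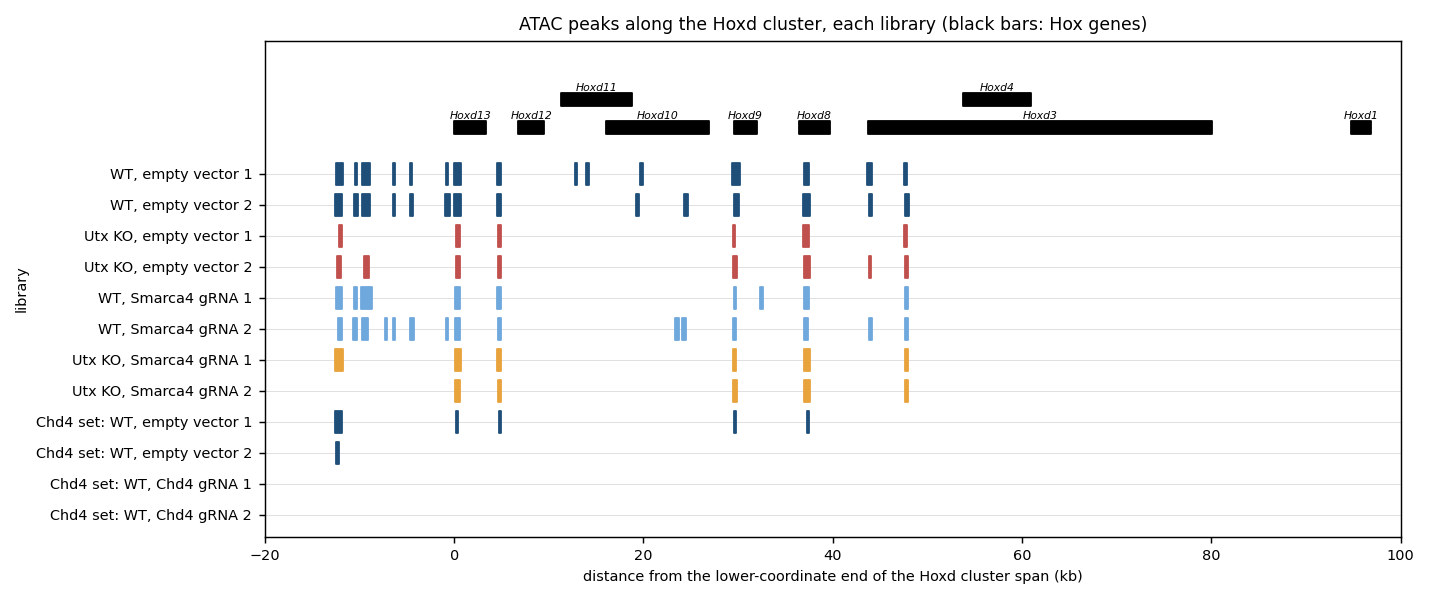
ATAC peaks along cluster D in all 12 libraries (x axis, distance in kb from the lower-coordinate end of the Hox span; rows, libraries; coloured boxes, peaks; black bars, Hox genes). Peaks at Hoxd13, Hoxd9 and Hoxd8 are in all 8 libraries of the first set. Of the regions just outside Hoxd13 that both WT libraries with empty vector hold, 4 are in neither KO library with empty vector. Among the others, chr2:74655579-74656486 is in both of these KO libraries and chr2:74658379-74659553 in KO replicate 2.

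The Smarca4 guide was compared with empty vector in each Utx genotype. In WT, guide libraries covered 0.931 and 1.23% of the Hox windows, below the 1.58 and 1.47% of the empty-vector libraries (ratio of means 0.706; exact permutation p = 0.333, the smallest possible). Scaled to each list they held 292 and 349 bases per Mb against 461 and 381, also without overlap, while the whole lists overlapped in covered Mb (28.2 and 31.2 against 30.4 and 34.2, ratio 0.919) and not in their number of peaks (41970 and 46141 against 50796 and 50884). Each cluster was lower without overlap: D had 2.26 and 2.95%, B 0.856 and 0.91%, A 0.625 and 0.699% and C 0.0941 and 0.544%. Replicate 1 was the lower in all 4 clusters.

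Of 18 Hox genes with a peak, 7 were less covered after the Smarca4 guide in WT (Hoxb4, Hoxb6, Hoxc9, Hoxd3, Hoxd9, Hoxd11 and Hoxd13), against 29.3% of all genes, and 0 more, against 9.52%. Of 44 Hox regions, 3 were lost (6.82%, against 5.97% of all) and 0 gained (0.865% of all). With the wider 50% of each list 3 of 14 were lost (21.4%, against 5.27%), and with lists shortened to equal length 0 of 36 (against 2.59%), so the order of the Hox and genome shares depended on the peaks used. The 3 regions were the site on Hoxb3 and Hoxb4, that beside Hoxc9 and that 45.0 kb from Hoxa13, each also lost in KO with empty vector; both comparisons use the same 2 WT control libraries. The count was 6 without WT empty-vector replicate 1, 10 without replicate 2, and 8 without guide replicate 2.

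In Utx KO cells the libraries with Smarca4 guide and empty vector overlapped; the latter are also the KO group of the comparison above. Guide libraries covered 0.83 and 0.447% of the Hox windows, on either side of the 0.586 and 0.644% with empty vector (difference of means 0.023 percentage points, exact permutation p = 1.0), and this sign turned when either replicate 1 was left out. Of 21 Hox regions 0 were lost (8.45% of all regions) and 0 gained (0.268%). Of 10 genes with a peak 0 were less covered (36.6% of all genes) and 1, Hoxd13, more (5.06%). Without guide replicate 1 the lost count was 3, without empty-vector replicate 1 or 2 it was 2 or 1, and without guide replicate 2 there were 4 gained.

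Hoxd13 had 10.7 and 15.0% after the guide in WT, below the 16.2 and 21.0% with empty vector, and 11.6 and 9.85% after the guide in KO, above the 7.98 and 7.45%. The differences were -5.76 and 3.01 percentage points. The measured span, with 1 kb at each end, takes in a region on the gene (chr2:74668252-74668923) that every library of the first set held. It also takes in chr2:74667255-74667743, 481 bp outside the gene. Both WT empty-vector libraries held the latter (228 and 489 bases), as did WT guide replicate 2, but no KO library did. The WT difference thus includes a site that the KO difference does not. The posterior class, which includes Hoxd13, differed by -1.34 points in WT (3.2 and 2.85% to 1.03 and 2.33%) and 0.528 in KO (0.633 and 0.831% to 1.61 and 0.906%). The 15 posterior genes other than Hoxd13 were lower in WT without overlap (2.49 and 1.87% to 0.503 and 1.65%) but overlapped in KO (0.235 and 0.472% to 1.07 and 0.42%), where only guide replicate 1 was higher, with peaks at Hoxa10 (5.12%) and Hoxc10 (2.82%). The difference between genotypes was not tested. Of 15033 genes with a peak, 134 (0.891%) were lower in WT and higher in KO after the guide, with Hoxd13 the 1 Hox gene, and 385 (2.56%) showed the reverse, with 0 Hox genes. With the guide, WT and KO libraries met at Hoxd13, with 10.7 and 15.0% against 11.6 and 9.85%.

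A comparison of KO with WT among the Smarca4-guide libraries was added after the data were seen, and uses the guide libraries of the 2 comparisons above. Hox windows were covered by 0.931 and 1.23% in WT and 0.83 and 0.447% in KO (ratio 0.591, no overlap, exact permutation p = 0.333), but scaled to each list the values overlapped (292 and 349 against 309 and 203 bases per Mb). Cluster B had 0.856 and 0.91% against 0.525 and 0.278%, and D 2.26 and 2.95% against 1.63 and 1.12%, both without overlap; A and C overlapped. Of 34 Hox regions 4 were lost (11.8%, against 12.3%) and 0 gained (0.772%), near the genome's share. Of 14 genes with a peak, 5 were less covered, Hoxa3, Hoxb2, Hoxb3, Hoxb4 and Hoxb6 (53.6% of all genes), and 1 more, Hoxd8 (3.54%). All 4 Hoxb genes with a peak were lower here, and no posterior gene was.

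Hoxb2 had 11.7 and 9.93% in WT and 0 in both KO libraries with the guide, as it had 0 in both with empty vector. The Hoxb2 region was covered by 512 and 436 bases in the WT guide libraries, and the Hoxb6 region chr11:96299173-96299481 by 212 and 246; both were absent in KO. The other 2 lost regions lay 8.67 and 10.2 kb from Hoxd13. The count was 7 without KO guide replicate 1, 14 without WT guide replicate 1 and 2 with lists shortened to equal length. Of the 10 regions lost in KO with empty vector, both WT guide libraries held 3, 1 held 4 and neither held 3, while neither KO guide library held 9. In the genome the same values for 6618 lost regions were 38.4% held by both WT guide libraries, 32.1% by neither, and 90.3% by neither KO guide library. All 12 Hox regions kept by the 4 empty-vector libraries were held by both WT guide libraries and 10 of them by both KO ones.

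**Figure D4:**
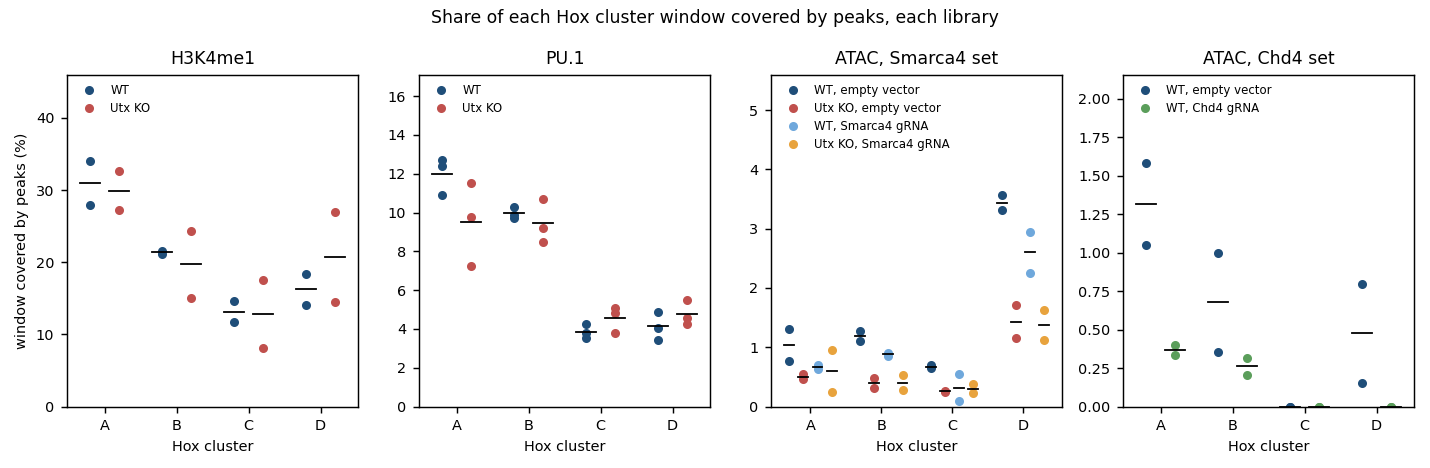
Share of each cluster window covered by peaks (percent, linear axes from 0, 1 panel per assay or ATAC set). Points are libraries and black lines are group means; in the first ATAC set D is highest in every group, and in the second the 2 Chd4-guide libraries lie at 0 in D while C is at 0 in all 4 libraries.

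The Chd4 guide was compared with empty vector in WT cells of the second set. Hox windows were covered by 0.842 and 0.379% with empty vector and 0.188 and 0.139% with the guide (ratio of means 0.267, no overlap, exact permutation p = 0.333, the smallest possible). The guide lists were shorter, with 0.595 times the covered bases, and per Mb of list Hox windows held 248 and 133 bases against 84.5 and 93.3, also without overlap (ratio 0.466). Cluster A had 1.58 and 1.05% against 0.399 and 0.335%, B 1.0 and 0.355% against 0.318 and 0.205%, and D 0.796 and 0.153% against 0 in both. The controls differed from each other by more than 2-fold in B and D. Guide libraries had a peak at 6 and 1 of 38 Hox genes (15.8 and 2.63%, against 58.3 and 53.7% of all genes) and empty-vector libraries at 11 and 5 (28.9 and 13.2%), so these counts overlapped.

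Of 11 Hox genes with a peak, 5 were less covered after the Chd4 guide (Hoxa3, Hoxa4, Hoxa9, Hoxb3 and Hoxb4), against 72.3% of all genes, and 0 more (0.355%). Hoxa9 went from 13 and 6.55% to 0 in both, and Hoxb4 from 13.1 and 5.77% to 4.84 and 0%. Of 18 Hox regions 4 were lost (22.2%, against 13.7% of all and 18.4% of those no wider than 908 bp) and 0 gained (0.0963%). Cluster A held 3 of them: one on Hoxa9 (chr6:52225708-52226498, 791 and 411 bases), one on Hoxa3 (chr6:52211508-52212192, 375 and 391) and one 1.41 kb from Hoxa10 (chr6:52229242-52229788, 290 and 547). The last lay 11.7 kb from Hoxd13 at Evx2. The count was 12 without empty-vector replicate 2. It was 1 of 7 with lists shortened to equal length (14.3%, against 3.67% of all) and 1 of 6 with the wider 50% (16.7%, against 12.7%).

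PU.1 at the Hox clusters overlapped between Utx genotypes. Islands covered 7.72, 7.72 and 7.43% of the windows in WT and 8.03, 6.59 and 7.06% in KO (7.62% ± 0.169 and 7.23% ± 0.736, SD, n = 3 each; exact permutation p = 0.4). Cluster A had 12.4, 12.7 and 10.9% in WT and 11.5, 7.25 and 9.76% in KO, with KO replicate 2 the lowest (exact permutation p = 0.2). B, C and D overlapped as well. Of the 3 classes the central genes did not overlap, 11, 11.4 and 11.6% against 10.7, 8.73 and 9.94%, with p = 0.1 by the exact permutation test, the smallest that 3 against 3 allows. Posterior genes overlapped, with means of 10.7 and 10.1%, an order that turned among the higher-scoring 50% of islands. Within cluster C the 5 posterior genes were more covered in KO without overlap, 2.34, 4.68 and 5.26% in WT against 6.43, 8.22 and 9.85%. Every other class within a cluster overlapped, and so did each single Hoxc gene. The posterior genes of C were singled out after the values were seen, and their difference was not tested.

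Of 28 Hox genes with a PU.1 island, 0 were less covered in all KO than in all WT libraries (8.77% of all genes) and 0 more (9.39%). Hoxa9 had 59.0, 65.3 and 41.4% in WT and 47.8, 15.9 and 9.55% in KO. KO replicate 1 lay within the WT range, and replicates 2 and 3 below it. Hoxa7 had 60.1, 48.0 and 64.1% against 40.4, 24.2 and 63.6%, and Hoxb4 44.6, 63.3 and 52.1% against 59.5, 59.5 and 52.1%, so Hoxb4 was as covered in KO as in WT. Of 119 Hox regions 1 was lost (0.84%, against 1.16% of all) and 0 gained (2.87%). It lay at the low-coordinate end of Hoxa9, chr6:52223001-52223599, with 599, 399 and 399 bases in WT and 0 in KO. The lost count was 2 without KO replicate 1 and 3 without WT replicate 1 or 3.

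**Figure D5:**
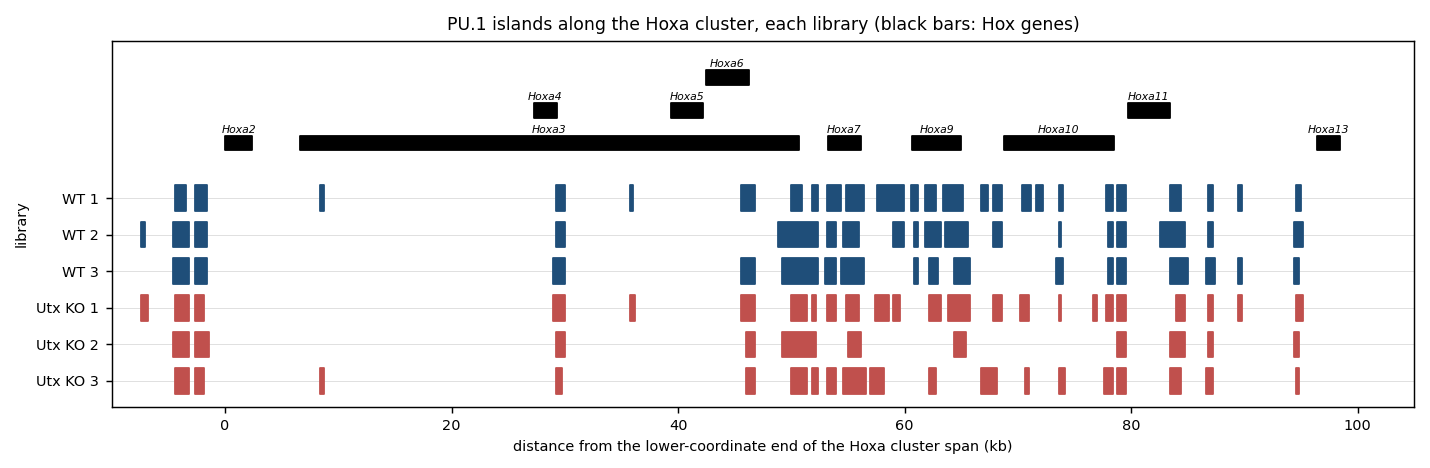
PU.1 islands along cluster A in all 6 libraries (x axis, distance in kb from the lower-coordinate end of the Hox span; rows, libraries; coloured boxes, islands; black bars, Hox genes). KO replicate 2 holds the fewest islands, 15 in the A window against 22 to 30 in WT and 31 and 26 in KO replicates 1 and 3.

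H3K4me1 at the Hox clusters was spread more between KO replicates than between genotypes. Islands covered 18.9 and 21.9% of the windows in WT and 16.0 and 25.1% in KO (20.4% ± 2.08 and 20.5% ± 6.47, SD, n = 2 each; exact permutation p = 1.0). Every cluster overlapped: KO had 27.2 and 32.6% in A, 15.1 and 24.4% in B, 8.06 and 17.5% in C and 14.5 and 26.9% in D, with replicate 1 the lower each time. The sign of the pooled difference turned without WT replicate 1, without KO replicate 2 and without the 50 kb flanks, and those of A, B and C turned when scaled to list length. No class differed without overlap.

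Of 37 Hox genes with an island, 5 were less covered in KO (22.8% of all genes) and 8 more (11.4% of all). The lower ones were Hoxb1, Hoxb2, Hoxb5, Hoxc8 and Hoxc12, and the higher ones Hoxa13, Hoxb8, Hoxc5, Hoxc13, Hoxd1, Hoxd8, Hoxd9 and Hoxd12. Hoxb2 had 100 and 91.1% in WT and 63.8 and 50.1% in KO, and Hoxb1 48.8 and 54.4% against 0 and 39.9%. Hoxa13 had 61.6% in both WT libraries and 100 and 81.4% in KO. Clusters B and C held both, with 3 lower and 1 higher in B and 2 and 2 in C, while D held 4 and A 1 higher and no lower gene.

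Of 56 H3K4me1 regions at Hox clusters 2 were lost (3.57%, against 10.9% of all) and 0 gained (2.15%). Both lay in C: one over Hoxc12 (chr15:102934201-102939199, 2599 and 3199 bases in WT) and one on Hoxc8 (chr15:102990001-102992799, 1999 and 2799), each 0 in both KO libraries. The count was 12 without KO replicate 2 and 4 without either WT replicate. In the same cluster Hoxc9 kept its island, with 46.4 and 80.4% in WT and 50.6 and 67.7% in KO. Hoxc8 and Hoxc12 had no ATAC peak in any library, and Hoxc8 no PU.1 island.

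Hox cofactors, the Meis, Pbx and Pknox proteins that bind DNA with Hox factors, were counted from a list of 9 genes. In Utx KO, Meis1, Pbx4 and Pknox1 were among those less covered by H3K4me1, and 1 was more covered (Meis2). Over all genes with an island 22.8% were less covered and 11.4% more. Meis1 had 51.4 and 77.1% in WT and 21.4 and 30.7% in KO, with 2 of its 8 regions lost. Pknox1 had 23.7 and 34.4% against 15.7 and 16.2%, with 1 of 5 lost. Over all H3K4me1 regions 10.9% were lost. By PU.1, Meis1 was the 1 of 9 with lower coverage, 12.6, 13.6 and 12.2% against 11.3, 10.3 and 11.5%. Of all genes, 8.77% were lower by PU.1. Hoxa9, the partner of Meis1, was covered by H3K4me1 over 100% of its span in WT and KO libraries alike. Its value was thus at the upper limit of this measure, and nothing is read from the contrast with Meis1.

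By ATAC, KO with empty vector had 2 of 9 cofactors lower (Pknox1 and Pknox2) and 1 higher (Pbx3), and the Smarca4 guide 3 lower in WT and 5 in KO, with 0 higher. The Chd4 guide had 7 lower and 0 higher, and KO with Smarca4 guide 4 and 0. Over all genes the lower share in these 5 comparisons was 49.7, 29.3, 36.6, 72.3 and 53.6%, and nothing is read from the cofactors' counts. There were 20 regulators of Hox clusters (MLL, Polycomb, Cdx and CTCF genes and their partners). By H3K4me1 in KO, 8 of 19 with an island were lower and 1 higher, against 22.8 and 11.4% of all genes. By PU.1, 2 of 20 were lower and 1 higher, against 8.77 and 9.39%. By ATAC, of 17 with a peak, these counts were 7 and 0 in KO with empty vector and 5 and 2 after Smarca4 guide in WT. They were 8 and 0 after this guide in KO, 14 and 0 after Chd4 guide and 10 and 0 in KO with Smarca4 guide. The lower shares over all genes by ATAC are those given for the cofactors, and nothing is read from the regulators' counts either. Mllt3, an MLL partner, had the most lost H3K4me1 regions of the list and was named for that. In KO it lost 5 of 16 H3K4me1 regions (10.9% of all regions). With empty vector it lost 2 of 11 ATAC regions in KO (11.3% of all). It also gained 2 of 35 PU.1 regions in KO (2.87% of all).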

How the data were processed

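Peak lists of 22 libraries were used as deposited; 2 inputs have no list. Per the submitters' processing notes, Bowtie, Bowtie2, SICER and MACS2 were used with mm10; versions and roles are not given in the sources used here. The lists are per library. ATAC lists hold positions only, so width served to rank peaks. The H3K4me1 and PU.1 lists lie on a 200 bp grid, and per the file contents the authors deposited a whole-number score per island, whose meaning is inferred and which only ranked islands within a list. No list gives a depth, so the shares have no counting interval. Titles of guide and empty-vector libraries share a sample name (WT1, for example), but no source says that it marks 1 mouse; same-numbered libraries' deviations from the group means correlated by 0.22 and 0.0768 for the Smarca4 guide in WT and KO and 0.277 for Chd4. Between WT and KO, which share only a number, this was -0.153 to 0.176. The main tests were unpaired.

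Values were computed in Python 3.11.15 (pandas 2.3.3, numpy 2.4.6), tests in scipy 1.17.1 and plots in matplotlib 3.10.9. Gene positions, promoters (250 bases before to 50 after the start) and miRNAs came from RefSeq tables of GRCm38.p6, the build of the lists; 672 peaks off the main chromosomes were left out. Gene coverage is the percent of a gene span plus 1 kb at each end that lies under peaks; a class is the pooled span of its genes, and a cluster window includes 50 kb flanks. Peaks of all libraries of an assay were merged, and a region was lost or gained when all libraries of 1 group and none of the other held it. A gene was lower or higher when groups did not overlap. The test of covered shares was the exact permutation test (two-sided, over libraries) in 7 comparisons; the smallest p is 0.333 for 2 against 2 and 0.1 for 3 against 3, so p-values were not adjusted. Members and gene lists were chosen with earlier results of these data known. Genes were named by rule: those at or nearest to a lost region, the 5 most covered per assay, and those never covered; others show per-gene calls.

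Alternatives were the upper 50% of each list, lists shortened to the shortest, a 50% cover for a held region, no flanks, bases per Mb of list, each library left out and a replicate block. The 2 ATAC sets were processed separately and were not tested against each other. Some single genes of the marker and cofactor lists are not reported here.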

Additional observations from a re-analysis of the deposited data

Results flagged for a closer look

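The Smarca4 guide went with opposite differences in the 2 Utx genotypes at Hoxd13 and over posterior Hox genes. At Hoxd13 the covered share differed by -5.76 percentage points in WT and 3.01 in KO, and over the 16 posterior genes by -1.34 and 0.528. For both measures, each WT guide library lay below both WT empty-vector libraries, and each KO guide library above both KO empty-vector libraries. In WT the Hoxd13 value, which includes 1 kb at each end, also holds the region 481 bp outside the gene. No KO library held that region, so the differences at Hoxd13 are not those of a single site. The posterior class includes Hoxd13. Its other 15 genes differed by -1.11 in WT and 0.393 in KO, and in KO they overlapped (0.235 and 0.472% against 1.07 and 0.42%), with guide replicate 1 alone higher; leaving Hoxd13 out was chosen after seeing the data. The difference between genotypes was not tested. With lists shortened to equal length the signs were alike, -5.63 and 3.01 for Hoxd13 and -0.891 and 0.416 for posterior genes, and with the wider 50% of each list -1.09 and 10.7, and -0.706 and 0.552.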

How the results depend on the processing

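For the covered share of all Hox windows, the KO minus WT difference in H3K4me1 reversed without flanks (-0.0103 percentage points against 0.148). Leaving out each library gave -4.43 to 4.72 for H3K4me1, -0.795 to -0.0731 for PU.1, -0.969 to -0.859 for ATAC with empty vector, -0.599 to -0.301 for the Smarca4 guide in WT, -0.169 to 0.215 in KO, -0.678 to -0.216 for the Chd4 guide and -0.633 to -0.249 for KO against WT with Smarca4 guide. H3K4me1 reversed to -4.43 without KO replicate 2 and -1.32 without WT replicate 1, and the Smarca4 guide in KO to -0.00616 and -0.169 without empty-vector or guide replicate 1. With the replicate number as a block, the paired exact test, in the same order, gave differences of 0.148, -0.393, -0.914, -0.45, 0.023, -0.447 and -0.441 with p of 1.0, 0.5, 0.5, 0.5, 1.0, 0.5 and 0.5. The smallest p such a test allows is 0.5 for 2 pairs and 0.25 for 3, so no call could change and this says nothing about stability.

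Lost Hox regions with the upper 50% of each list were 1 for H3K4me1, 0 for PU.1, 5 for ATAC with empty vector, 1 for Chd4 and 1 for KO against WT with Smarca4 guide. With lists shortened to equal length they were 1, 3, 1, 1 and 2 in that order and 0 for the Smarca4 guide in WT. With 50% cover they were 2 for PU.1 and 5 for the Smarca4 guide in WT, and without flanks 5 for ATAC with empty vector and 2 for KO against WT with Smarca4 guide. Gained regions, 0 in the report, were 1 for H3K4me1, PU.1 and the Smarca4 guide in KO with the upper 50%, and 2 and 1 for H3K4me1 and PU.1 with 50% cover. With shortened lists they were 2 for ATAC with empty vector and 1 for the Smarca4 guide in WT, in KO and for KO against WT with guide. Leaving out each library gave, in the order above, 2 to 12, 1 to 3, 11 to 18, 3 to 10, 0 to 3, 4 to 12 and 4 to 14 lost and 0 to 4, 0 to 3, 0 to 1, 0 to 3, 0 to 4, 0 to 0 and 0 to 3 gained; with fewer libraries the rule asks for fewer. Crossing the replicate numbers leaves these counts as they are.

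Single clusters and classes reversed as follows, in percentage points, or bases per Mb where scaled to list length. Smarca4 guide in KO: anterior 0.657, D 0.142 (shortened), central -0.185, C -0.114, D 0.398 (upper 50%), D 14.3 (scaled). H3K4me1: A 0.957, C 2.92 (upper 50%), C 1.85 (shortened), anterior 1.23, A 37.0, B 13.4, C 13.8 (scaled). PU.1: posterior 0.393 (upper 50%). KO against WT with Smarca4 guide: central 0.328 (upper 50%), central 0.273, A 0.108, C 0.0999, posterior 0.245 (shortened), central 11.8, A 7.93, C 7.55, posterior 1.67 (scaled). The causes were not tested. Depth is unknown, so an absent peak is not an absent signal.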
